A study of Homo sapiens with 8 samples.

Results

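The Fanconi anemia core complex and its substrate pair were examined as 10 protein-coding genes, FANCA, FANCB, FANCC, FANCE, FANCF, FANCG, FANCL, FANCM, FANCD2 and FANCI, among the 61906 genes listed in RNAseq of U251 cells. They were chosen by name from the pathway while the LLY-283 against vehicle values of these libraries were already known. Their own differences between the groups are therefore given as a description. Where a count of calls among them is printed, it restates the values behind the choice and is not a test of them. U251 is a human glioblastoma line, labelled WT. LLY-283 is a compound that blocks PRMT5, an arginine methyltransferase. Cultures were exposed to DMSO vehicle (4 libraries) or to 100 nM LLY-283 (4 libraries), and RNA was taken after 24 h in both groups. The labels name no other agent, and all 8 libraries come from 1 cell line. The series addresses which transcripts, those of DNA repair among them, differ once PRMT5 is inhibited.

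The Fanconi anemia pathway removes crosslinks that tie both DNA strands together, and its inherited loss causes bone marrow failure and a predisposition to cancer. FANCM and its partners bind the blocked fork and recruit the core complex, an assembly of several modules. Within it FANCL is the ubiquitin ligase, which works with the conjugating enzyme UBE2T to attach a single ubiquitin to FANCD2 and to FANCI. The modified pair closes around DNA and brings in the nucleases and recombination factors that finish repair, after which USP1 with WDR48 takes the ubiquitin off. Tumour cells rely on the pathway at stalled replication forks, and many of its genes are transcribed mainly in dividing cells.

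Expression is given in TPM, the abundance of a transcript, corrected for its length, relative to all transcripts of the library, so that levels of different genes can be set side by side. The number of reads behind a TPM value is not kept, so that depth is unknown and no counting error can be attached. All 10 genes passed the filter of a mean of at least 1 TPM, as did 14478 genes in total. PRMT5 itself had 100.0 ± 5.03 TPM with vehicle and 100.4 ± 4.91 TPM with LLY-283 (SD, n = 4 each). The glial markers VIM, CD44, GFAP, NES and SOX2 had means between 85.6 and 4301 TPM, whereas S100B had only 4.34 TPM with vehicle and 3.21 TPM with LLY-283. GFAP, NES and SOX2 fell with LLY-283, by 0.25, 0.17 and 0.27 on the log2 scale (adjusted p = 0.000820, 0.000731 and 0.000349, limma), and CD44 rose by 0.11 (adjusted p = 0.0168). VIM and S100B were not called, the summed glial markers lay between 7170 and 7339 TPM with vehicle and between 6907 and 7266 TPM with LLY-283, and their part in the levels of the members was not tested. Of 10 markers of blood, epithelial, endothelial, neuronal and oligodendrocyte cells, CD3E was at 0 throughout and only SYT1 (means of 5.12 and 4.77 TPM) exceeded 1 TPM, and their sum lay between 5.09 and 6.60 TPM in every library. LLY-283 replicate 4 stood apart in its mitochondrial transcripts, 7.19% of its TPM against 10.15 to 10.995% in the other libraries.

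With vehicle the 10 genes spanned a 12.9-fold range of level. FANCI was the highest at 83.7 ± 4.51 TPM (SD, n = 4, as for the vehicle levels that follow), and FANCG came next at 50.2 ± 2.34 TPM and FANCA at 38.3 ± 1.76 TPM. FANCL at 32.5 ± 1.49 TPM stood above FANCD2 at 23.6 ± 2.03 TPM. The lower members were FANCC at 15.04 ± 0.530 TPM, FANCE at 11.8 ± 0.956 TPM, FANCF at 11.5 ± 0.470 TPM, FANCB at 9.37 ± 1.66 TPM and FANCM at 6.49 ± 0.479 TPM. Among neighbours in this order, only FANCE and FANCF had overlapping ranges. FANCB had the largest coefficient of variation, 17.7%, and its range of 7.40 to 10.84 TPM is wider than the steps to its neighbours FANCF and FANCM. With LLY-283 FANCL came below FANCD2 and the means of FANCE and FANCF were equal, the order being otherwise the same, and the ranges of these 2 genes overlapped, as did those of FANCE with FANCF and of FANCB with FANCM.

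**Figure D1:**
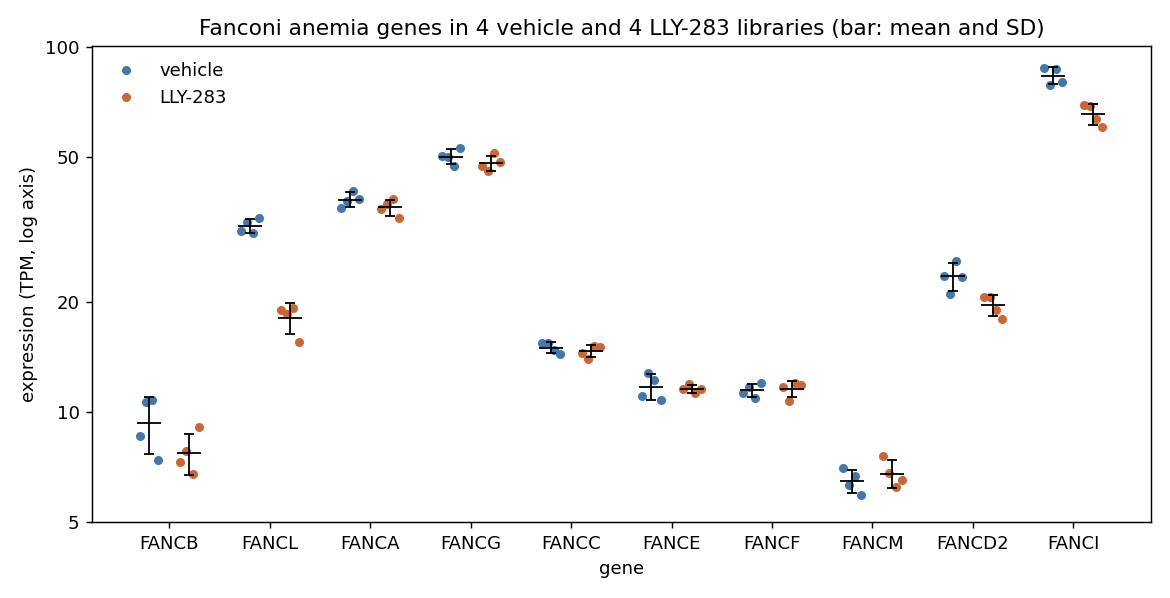
Level of each gene in every library (points, TPM on a log axis) for vehicle and LLY-283, with the mean and SD of 4 libraries as bars. FANCL lies between 31.08 and 34.18 TPM with vehicle and between 15.55 and 19.33 TPM with LLY-283, FANCI and FANCD2 are separated by less, and the groups overlap for the other genes.

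With LLY-283, FANCL was the member that lay furthest below its vehicle level, FANCI and FANCD2 were lower by less, and so was FANCB, with a wider spread and overlapping groups. The log2 differences of the other 6 core genes lay between -0.07 and 0.06. The summed level of the core genes other than FANCL was 142.6 ± 2.11 TPM with vehicle and 137.1 ± 2.83 TPM with LLY-283 (SD, n = 4 each), with overlapping groups. When log2(TPM + 0.1) was fitted with limma and p-values were adjusted over all genes tested (Benjamini-Hochberg), the fit called 3 of the 10 genes at an adjusted p under 0.05 (FANCL, FANCI and FANCD2), all lower, and 0 higher, which describes the genes picked. Over all genes tested 17.6% were called lower and 8.61% higher by the same rule, and since this contrast was known when the genes were picked, nothing is read from the count. The split over all genes depends on the scaling: 2541 were lower and 1247 higher as deposited, 1820 and 1871 after quantile normalization, and 1867 and 1927 under median-of-ratios scaling. FANCL, FANCI and FANCD2 were also the members whose groups did not overlap, where 19.6% of all genes were lower and 9.63% higher without overlap. With a change above 1.5-fold also required, only FANCL was called, against 3.48% of all genes in the lower direction. The median log2 difference (LLY-283 minus vehicle) of the 10 genes was -0.06, against -0.05 over all genes tested. In RNA from whole cultures, fewer cells that transcribe a gene and less of its RNA per cell cannot be told apart.

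**Figure D2:**
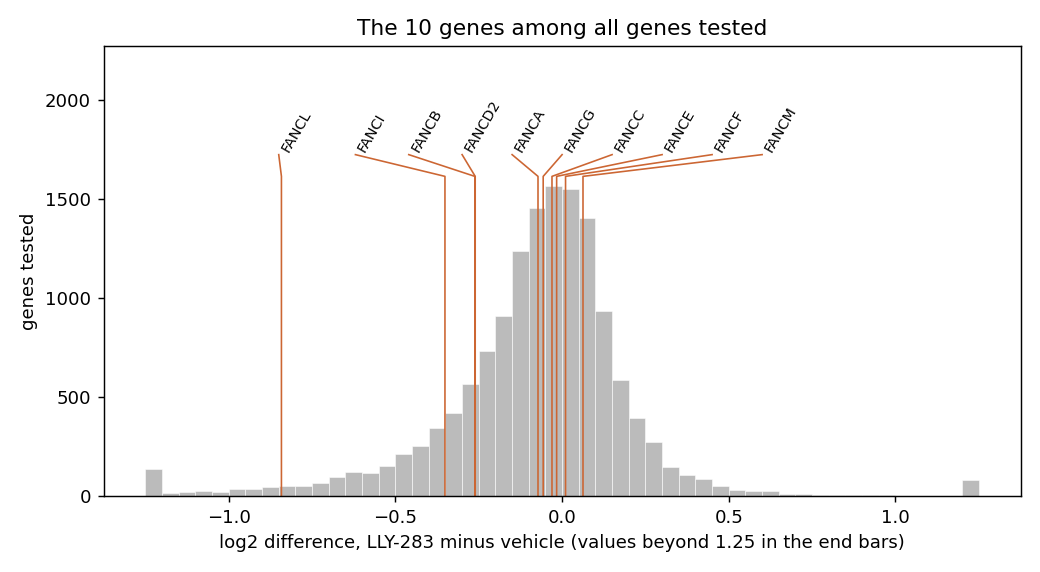
Number of genes tested (vertical axis) by log2 difference of LLY-283 minus vehicle (horizontal axis), with a line at each of the 10 genes. FANCL at -0.84 lies in the lower tail, FANCI, FANCB and FANCD2 lie between -0.35 and -0.26, and the other 6 genes lie between -0.07 and 0.06.

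FANCL (ENSG00000115392, chromosome 2, 58159243 to 58241410 on the minus strand of GRCh38, 14 exons in its canonical transcript) encodes the catalytic subunit. Its level was 31.40, 33.28, 31.08 and 34.18 TPM in vehicle replicates 1 to 4. It was 19.10, 18.55, 19.33 and 15.55 TPM in LLY-283 replicates 1 to 4. All 4 LLY-283 values lay far below the lowest vehicle value, and LLY-283 replicate 4, the library with the low mitochondrial share, was the lowest. The mean went from 32.5 ± 1.49 to 18.1 ± 1.75 TPM (SD, n = 4 each), which is 44.2% lower, with a log2 difference of -0.84 (standard error 0.071). Only 2.38% of the genes tested had a lower log2 difference. Without LLY-283 replicate 4 the log2 difference was -0.77.

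FANCL was also lower relative to its fellow subunits. It made up 17.8 to 19.4% of the summed TPM of the 8 core genes in the vehicle libraries and 10.2 to 12.3% in the LLY-283 libraries. Its ratio to FANCG, whose level was similar in both groups, was 0.648 ± 0.0179 with vehicle and 0.377 ± 0.0398 with LLY-283 (SD, n = 4 each). Against UBE2T, the conjugating enzyme that FANCL pairs with, the ratio was 0.280 ± 0.0158 and 0.187 ± 0.0134. Neither ratio overlapped between the groups.

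The bases before the start site of FANCL are shown because it is the member that differed most, with those of FANCD2, which differed by less, and of FANCM, which did not differ beyond its spread. They come from RefSeq (GRCh38.p14), which held an entry for 9 of the 10 genes, the missing one being FANCI, and parts that any annotated UTR covers were left out. Each is written 5′ to 3′ on the strand of its gene, at chr2:58241411-58241575 (minus strand), chr3:10026187-10026369 (plus strand) and chr14:45135680-45135929 (plus strand). Capitals mark the GC box and the CCAAT box.
FANCL: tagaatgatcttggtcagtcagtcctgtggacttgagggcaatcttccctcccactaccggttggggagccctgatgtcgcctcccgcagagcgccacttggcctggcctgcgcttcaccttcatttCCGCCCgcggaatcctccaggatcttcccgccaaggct
FANCD2: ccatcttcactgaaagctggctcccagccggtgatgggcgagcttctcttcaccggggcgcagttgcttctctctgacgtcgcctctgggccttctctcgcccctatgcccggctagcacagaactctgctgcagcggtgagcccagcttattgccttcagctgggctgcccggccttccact
FANCM: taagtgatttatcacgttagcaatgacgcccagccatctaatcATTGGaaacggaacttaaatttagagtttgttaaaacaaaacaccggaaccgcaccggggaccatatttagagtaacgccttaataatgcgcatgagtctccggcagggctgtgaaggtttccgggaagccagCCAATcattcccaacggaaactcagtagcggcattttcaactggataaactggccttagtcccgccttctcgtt
Motifs were searched on both strands in the 250 bases before the RefSeq start: the GC box as GGGCGG, the CCAAT box as CCAAT, the cell cycle homology region as TTTGAA, and the E2F site as TTTCCCGC, TTTGGCGC, TTTCGCGC or TTTGCCGC. An E2F word that ends in CCGC can overlap a GC box. FANCL held a single GC box, a word found in 42.6% of 35116 promoters of the same length. FANCD2 held none of these words, and FANCM held 2 CCAAT boxes, a word found in 32.0% of promoters. The E2F words, found in 2.79% of promoters, were matched in FANCA and FANCC. The cell cycle homology word (13.3% of promoters) was matched in FANCC alone. The shown bases of FANCL also lie within the long noncoding gene ENSG00000273063 on the opposite strand, whose highest value in any library was 0.46 TPM. Those of FANCD2 likewise lie within a long noncoding gene on the opposite strand, ENSG00000291078, which was not analysed here.

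FANCB (ENSG00000181544, chromosome X, 14690388 to 14873255) and FAAP100 form the catalytic module together with FANCL. FANCB had 8.59, 10.65, 10.84 and 7.40 TPM with vehicle and 7.32, 7.82, 6.76 and 9.10 TPM with LLY-283. The groups overlapped, with vehicle replicates 1 and 4 below LLY-283 replicate 4. Its log2 difference of -0.26 was as large as that of FANCD2 but came with a standard error of 0.134. Under quantile normalization it was smaller, -0.15 against -0.21 for FANCD2. With single libraries left out it ran from -0.37 to -0.19. FAAP100, a partner that is not among the 10 genes, fell, its level being 30.4 ± 1.28 TPM with vehicle and 26.5 ± 0.536 TPM with LLY-283 (SD, n = 4 each, log2 difference -0.19, standard error 0.040, adjusted p = 0.00719, limma), lower in 4 of 4 libraries. The module sum of FANCB, FANCL and FAAP100 lay between 69.32 and 74.07 TPM with vehicle and between 51.40 and 53.58 TPM with LLY-283. FANCL was lower relative to FAAP100 too, with a ratio of 1.07 ± 0.0739 with vehicle and 0.684 ± 0.0730 with LLY-283.

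FANCA, FANCG and FAAP20 form a further module of the core complex. Its summed level with vehicle was 176.5 ± 4.94 TPM (SD, n = 4). The catalytic module had 72.2 ± 2.12 TPM with vehicle, and FANCC, FANCE and FANCF together had 38.3 ± 1.23 TPM. FANCA (ENSG00000187741, chromosome 16, 89726683 to 89816977), the gene most often mutated in patients, had 36.25, 37.94, 40.52 and 38.46 TPM with vehicle and 35.99, 37.26, 38.36 and 34.08 TPM with LLY-283. FANCG (ENSG00000221829, chromosome 9, 35073835 to 35080004), a scaffold that binds FANCA, had 50.27, 49.96, 47.36 and 53.09 TPM with vehicle and 47.40, 45.73, 51.20 and 48.60 TPM with LLY-283. Both genes overlapped between the groups, and their log2 differences were -0.07 (standard error 0.048) for FANCA and -0.06 (standard error 0.046) for FANCG. With single libraries left out these ran from -0.098 to -0.041 for FANCA and from -0.086 to -0.029 for FANCG. Under median-of-ratios scaling they were -0.028 and -0.012. The ratio of FANCA to FANCG was 0.765 ± 0.0627 with vehicle and 0.756 ± 0.0466 with LLY-283. FAAP20 was not called either, with 88.1 ± 4.42 and 85.5 ± 5.54 TPM (adjusted p = 0.576, limma).

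FANCC, FANCE and FANCF make up the module that binds the substrate, FANCE being the subunit that contacts FANCD2 and FANCF the adaptor that joins the modules. FANCC (ENSG00000158169, chromosome 9, 95099054 to 95426796) ranged from 14.41 to 15.49 TPM with vehicle and from 14.04 to 15.17 TPM with LLY-283. FANCE (ENSG00000112039, chromosome 6, 35452338 to 35467104) ranged from 10.80 to 12.81 and from 11.28 to 11.94 TPM. FANCF (ENSG00000183161, chromosome 11, 22622533 to 22625823), a gene of a single exon, ranged from 10.97 to 12.01 and from 10.73 to 12.01 TPM. Their log2 differences on the deposited scale were -0.03, -0.02 and 0.01, with standard errors of 0.047, 0.063 and 0.055. Under quantile normalization and under median-of-ratios scaling FANCC and FANCE turned to the higher side, and FANCF turned to the lower side with GC and length trends removed. FANCE was also on the higher side without vehicle replicate 2 or 3, and FANCF on the lower side without vehicle replicate 3 or LLY-283 replicate 3 or 4. Their sum was 38.3 ± 1.23 TPM with vehicle and 37.9 ± 0.860 TPM with LLY-283.

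FANCM (ENSG00000187790, chromosome 14, 45135930 to 45200890), a DNA translocase, anchors the complex at the damaged fork with FAAP24 and the histone-fold pair CENPS and CENPX. It was the lowest member, with 7.03, 6.32, 6.70 and 5.92 TPM with vehicle and 7.61, 6.80, 6.24 and 6.51 TPM with LLY-283. The groups overlapped, and the log2 difference was 0.06 (standard error 0.083). With single libraries left out this difference ran from 0.007 to 0.10, and under quantile normalization it was 0.19. FAAP24, as low in level, had 7.55 ± 0.528 and 6.74 ± 1.06 TPM (log2 difference -0.17, adjusted p = 0.289, limma). CENPS, by contrast, fell to 31.0 ± 1.17 TPM from 39.4 ± 2.41 TPM (SD, n = 4 each, log2 difference -0.35, standard error 0.049, adjusted p = 0.00117, limma), without overlap. CENPX had 176.3 ± 4.35 and 163.0 ± 10.8 TPM and was not called (log2 difference -0.12, adjusted p = 0.0939, limma), although it passed the threshold without LLY-283 replicate 4 (log2 difference -0.16, adjusted p = 0.00806), under quantile normalization (adjusted p = 0.0341) and with mitochondrial genes left out (adjusted p = 0.0352). CENPS and CENPX also belong to the inner kinetochore.

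FANCD2 and FANCI, the related proteins that receive the ubiquitin, were both lower with LLY-283. FANCI (ENSG00000140525, chromosome 15, 89243945 to 89317261, 38 exons) had 87.72, 78.98, 87.32 and 80.63 TPM with vehicle. It had 69.31, 68.96, 63.65 and 60.44 TPM with LLY-283. The lowest vehicle library still exceeded the highest LLY-283 library, and the groups were well apart. The mean went from 83.7 ± 4.51 to 65.6 ± 4.30 TPM (SD, n = 4 each), 21.6% lower, with a log2 difference of -0.35 (standard error 0.054). Leaving out single libraries moved it from -0.38 to -0.31.

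FANCD2 (ENSG00000144554, chromosome 3, 10026370 to 10101932, 44 exons) had 23.66, 21.08, 26.06 and 23.56 TPM with vehicle. It had 20.73, 20.71, 19.13 and 18.04 TPM with LLY-283. The groups were separate only narrowly, with vehicle replicate 2 at 21.08 TPM just above LLY-283 replicate 1 at 20.73 TPM. The mean went from 23.6 ± 2.03 to 19.7 ± 1.31 TPM (SD, n = 4 each), 16.7% lower, with a log2 difference of -0.26 (standard error 0.071). FANCD2 was no longer called without vehicle replicate 1 (log2 difference -0.26), vehicle replicate 3 (-0.21), vehicle replicate 4 (-0.26) or LLY-283 replicate 3 (-0.25).

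Both genes of the pair were low in the same libraries, LLY-283 replicate 4 and then replicate 3, and with vehicle replicate 2 was the lowest for both. The ratio of FANCI to FANCD2 spanned 3.35 to 3.75 with vehicle and 3.33 to 3.35 with LLY-283. Taken as a pattern over the 8 libraries, FANCD2 and FANCI were more alike than either was to any other of the 10 genes. Likeness was measured as the root mean square difference of log2(TPM + 0.1) after each gene's vehicle mean was subtracted, and it was 0.081 for this pair. Pairs of core genes were closer still, such as FANCF with FANCG (0.057), FANCC with FANCF (0.063) and FANCC with FANCG (0.0645). The points share their libraries and depth, and the treatment contributes to the measure. By the same measure over all genes tested that have a gene symbol, CEP68 (0.038), HILPDA (0.042) and POU3F2 (0.049) were the nearest to FANCD2. The nearest to FANCI were RWDD2A (0.038), FAM86DP (0.049) and MYORG (0.051), and the nearest to FANCL were DUXAP8 (0.054), H6PD (0.073) and MIR210HG (0.073).

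Several pathway genes are transcribed in S phase, so the cell cycle lists of Seurat were set beside the members. In the S phase list 12 of 43 genes were called lower and 1 higher, and in the G2/M list 17 of 54 were called lower and 3 higher (adjusted p under 0.05, limma). These are 27.9% and 31.5% lower, against 17.6% of all genes tested, while 8.61% of all genes were called higher. The difference between a list and all genes was not tested. Among the S phase genes, RRM2, a subunit of ribonucleotide reductase, fell by 0.65 on the log2 scale (adjusted p = 1.68e-05), CCNE2, a cyclin of S phase entry, by 0.49 (adjusted p = 0.000842) and POLA1, a DNA polymerase subunit, by 0.30 (adjusted p = 0.000575), while CENPU fell by 0.27 (adjusted p = 0.000376). Among the G2/M genes, CDC25C, a phosphatase of mitotic entry, fell by 0.41 (adjusted p = 0.000536), NUSAP1 by 0.27 (adjusted p = 0.000259), TOP2A by 0.21 (adjusted p = 0.00114) and ANP32E by 0.18 (adjusted p = 0.00134). TTK, a spindle checkpoint kinase, rose by 0.17 (adjusted p = 0.0113), and POLR1B, CBX5 and NCAPD2 also rose, by 0.18, 0.19 and 0.08 (adjusted p = 0.0293, 0.0290 and 0.0403, limma). These last 3 calls were easily lost. POLR1B lost its call without vehicle replicate 2 or 4 or LLY-283 replicate 1, 2 or 3 (adjusted p up to 0.0815), and CBX5 without vehicle replicate 1, 2 or 4 or LLY-283 replicate 1 or 3 (up to 0.0784). NCAPD2 was no longer called when any single library other than LLY-283 replicate 4 was left out (up to 0.0983). The summed S phase list was 3308 ± 29.1 TPM with vehicle and 3059 ± 35.2 TPM with LLY-283 (SD, n = 4 each). The summed G2/M list was 6791 ± 42.7 and 6378 ± 94.4 TPM, and neither sum overlapped between the groups on the deposited scale. As a share of the vehicle mean, the LLY-283 libraries had 91.7 to 94.1% of the S phase sum, 72.2 to 82.8% of FANCI, 76.5 to 87.9% of FANCD2 and 47.9 to 59.5% of FANCL. A sum does not show the spread between its genes. Within the S phase list, LLY-283 means ran from 63.7% of the vehicle mean (RRM2) to 113.6% (POLR1B). The part of the cell cycle in the levels of the members was not tested.

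**Figure D3:**
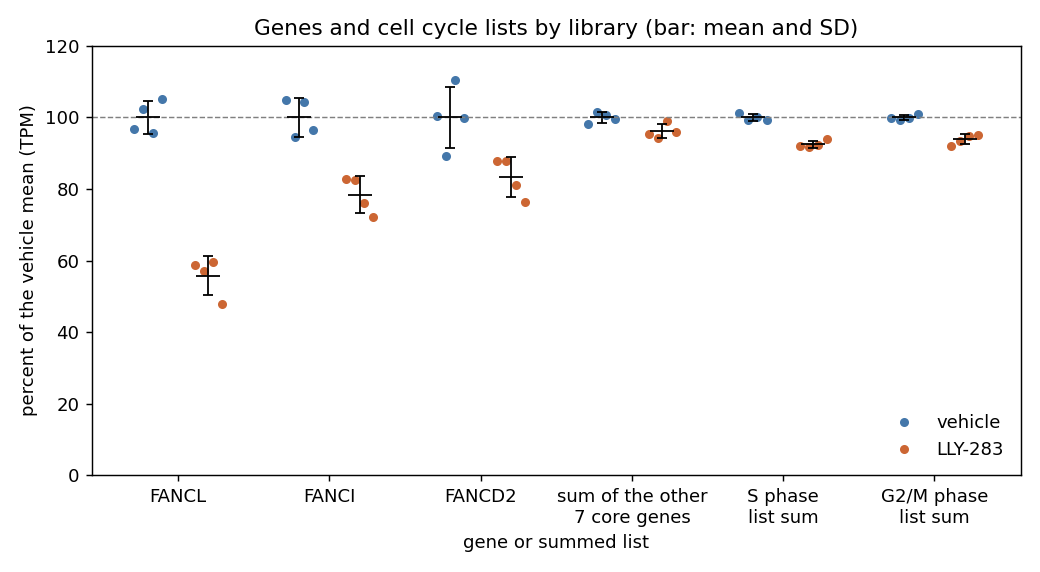
Level in each library as a percentage of the vehicle mean (vertical axis) for FANCL, FANCI, FANCD2, the sum of the other 7 core genes and the sums of the S phase and G2/M phase lists, with mean and SD of 4 libraries as bars. FANCL lies at 47.9 to 59.5% with LLY-283, the other core genes together at 94.2 to 98.9% and the S phase sum at 91.7 to 94.1%.

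The partners of the core complex and the enzymes of the ubiquitin cycle were taken as a list of 8 genes: FAAP20, FAAP24, FAAP100, CENPS, CENPX, UBE2T, USP1 and WDR48. This list, like those of downstream and end joining genes, was drawn up with earlier results of these data known, so that its calls are not independent evidence. All 8 had log2 differences below 0 (median -0.14, against -0.05 for all genes tested), but WDR48 turned positive under quantile normalization, and FAAP20 under median-of-ratios scaling and with GC and length trends removed. CENPS, UBE2T and FAAP100 were called lower (3 of 8, against 17.6% of all genes) and 0 were called higher (against 8.61%) in limma. At an unadjusted p under 0.05, 4 were lower and 0 higher, where 3673 and 1915 of all 14478 genes tested passed. UBE2T, the conjugating enzyme that works with FANCL, had 119.23, 116.73, 113.64 and 113.92 TPM with vehicle and 94.45, 99.87, 102.26 and 91.63 TPM with LLY-283. Every LLY-283 value was below every vehicle value, with a log2 difference of -0.26 (standard error 0.039, adjusted p = 0.00156, limma). USP1, the protease that reverses the reaction, had 81.9 ± 1.78 and 79.1 ± 1.165 TPM and its activator WDR48 14.8 ± 0.460 and 14.2 ± 0.916 TPM. Neither was called (adjusted p = 0.208 and 0.501, limma), although the groups of USP1 did not overlap and it was called lower with GC and length trends removed (log2 difference -0.08, adjusted p = 0.0398).

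The 24 genes that act after FANCD2-FANCI cover nucleases, recombination, translesion synthesis and the dissolution of DNA junctions. In limma 5 of 24 were called lower and 1 higher, against 17.6% and 8.61% of all genes tested. The median log2 difference was -0.09, against -0.05 over all genes tested. Under quantile normalization this median was -0.03 (all genes 0.014), and under median-of-ratios scaling -0.04 (all genes -0.002). BRCA1, which directs recombination, fell to 26.1 ± 0.651 TPM from 33.1 ± 2.04 TPM (SD, n = 4 each, log2 difference -0.34, adjusted p = 0.00116, limma). XRCC2, which acts in homologous recombination, fell from 15.7 ± 0.818 to 11.4 ± 1.46 TPM (log2 difference -0.47, adjusted p = 0.00583, limma). ERCC1, the partner of the nuclease ERCC4, fell from 60.4 ± 3.57 to 52.5 ± 2.57 TPM (log2 difference -0.20, adjusted p = 0.0185, limma), a call lost without vehicle replicate 2 (adjusted p = 0.0504) or vehicle replicate 3 (adjusted p = 0.0528), or under median-of-ratios scaling (adjusted p = 0.0560). RMI1, a subunit of the dissolution complex that was named after its value was seen, fell from 15.4 ± 0.768 to 13.6 ± 0.316 TPM (log2 difference -0.17, adjusted p = 0.0261, limma). RMI1 lost its call without vehicle replicate 1 (adjusted p = 0.0643), vehicle replicate 3 (0.0626), LLY-283 replicate 2 (0.0595) or LLY-283 replicate 3 (0.0653), and under quantile normalization (0.174), median-of-ratios scaling (0.0611) and the replicate block (0.0562).

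SLX1A and SLX1B, near-identical copies of the catalytic subunit of a structure-specific nuclease, went in opposite directions. SLX1A had a log2 difference of -0.30 (adjusted p = 0.00287, limma) and SLX1B one of 0.71 (adjusted p = 0.00784, limma). RSEM has to divide shared reads between such copies, so both values are uncertain, and their sum was 71.9 ± 2.82 TPM with vehicle and 64.5 ± 2.701 TPM with LLY-283, with overlapping groups. BRCA2 and PALB2, also among the downstream genes, were not called, whereas BRCA1 and XRCC2 of the same list were called lower. BRCA2 had 6.09 ± 0.897 and 6.55 ± 1.46 TPM, and PALB2 12.1 ± 1.149 and 12.2 ± 1.14 TPM.

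**Figure D4:**
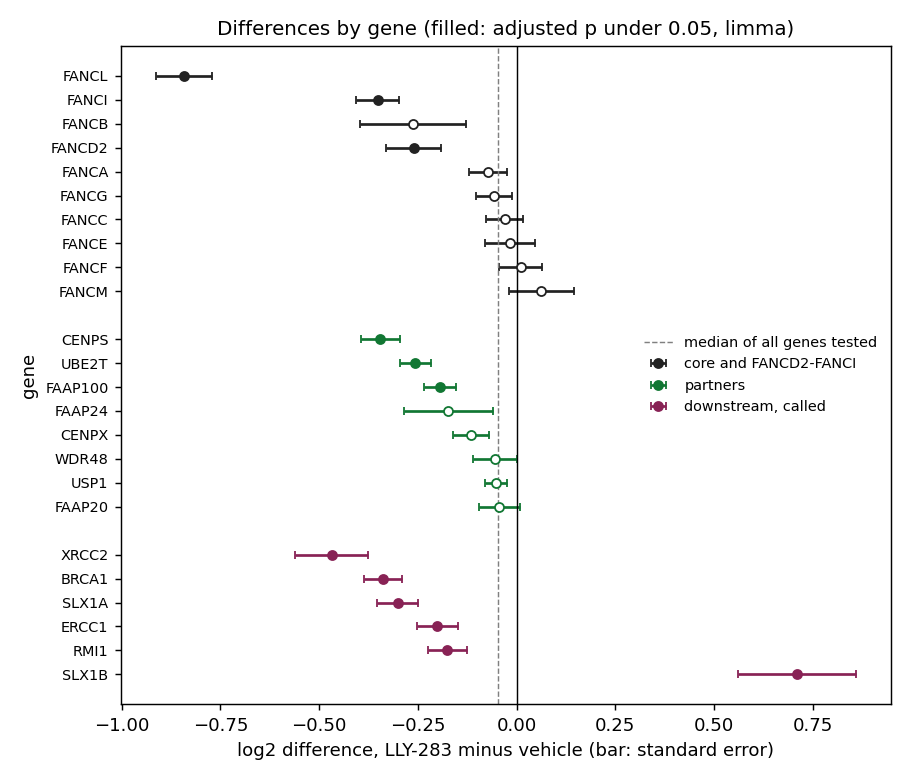
Log2 difference of LLY-283 minus vehicle with its standard error (horizontal axis) for the 10 genes, their 8 partners and the downstream genes that were called, filled where the adjusted p is under 0.05 (limma, over all genes tested). FANCL at -0.84 is the lowest of the genes shown, and SLX1B at 0.71 the highest.

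Non-homologous end joining, a separate route of double-strand break repair, was set beside the pathway through 8 core genes. Here 1 gene was called lower and 2 higher, against 17.6% and 8.61% of all genes tested, with a median log2 difference of -0.04 against -0.05. XRCC5 and XRCC6, which encode the Ku heterodimer, rose by 0.10 and 0.13 on the log2 scale (adjusted p = 0.0267 and 0.0277, limma), and XRCC4, the ligase cofactor, fell by 0.18 (adjusted p = 0.0369). The call of XRCC4 was lost without vehicle replicate 1, 3 or 4 or LLY-283 replicate 1, 2 or 3 (adjusted p up to 0.0916), and under quantile normalization (adjusted p = 0.298). The call of XRCC5 was lost without vehicle replicate 1, 2 or 4 or LLY-283 replicate 1 or 2 (up to 0.0788), and that of XRCC6 without vehicle replicate 2, 3 or 4 or LLY-283 replicate 2 (up to 0.0737). The difference between the lists was not tested.

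Genes that lie across or beside a member can share reads with it where the strand is not used in counting, and the sources used here do not say whether it was. FANCI runs toward POLG, the mitochondrial DNA polymerase, on the opposite strand, and the annotated genes share 12064 bases. POLG had 55.37, 55.16, 51.87 and 55.79 TPM with vehicle and 71.83, 75.35, 69.60 and 68.05 TPM with LLY-283. It thus rose where FANCI was lower, with a log2 difference of 0.38 (standard error 0.040, adjusted p = 0.000274, limma), and the summed TPM of both genes was 138.2 ± 3.85 with vehicle and 136.8 ± 7.23 with LLY-283 (SD, n = 4 each). Whether the counting moved reads between them was not tested.

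FANCC overlaps AOPEP, an aminopeptidase gene on the opposite strand, over 52740 bases, and AOPEP rose from 186.5 ± 9.58 to 209.3 ± 3.15 TPM (log2 difference 0.17, adjusted p = 0.0101, limma) while the groups of FANCC overlapped. FKBP3 starts 611 bases from FANCM and runs the other way. It fell to 124.1 ± 2.61 TPM from 148.7 ± 4.50 TPM (log2 difference -0.26, adjusted p = 0.000433, limma), with FANCM at a log2 difference of 0.06. ZNF276 (overlapping FANCA), MOSPD2 (starting 166 bases from FANCB) and the pseudogene NPM1P9 (within FANCB) were not called, with adjusted p of 0.723, 0.184 and 0.742 (limma). FANCL overlaps VRK2 over 678 bases, but VRK2 had at most 0.06 TPM in any library. FANCD2P2, a pseudogene of FANCD2, and FANCD2OS were listed at 0 in all 8 libraries.

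**Figure D5:**
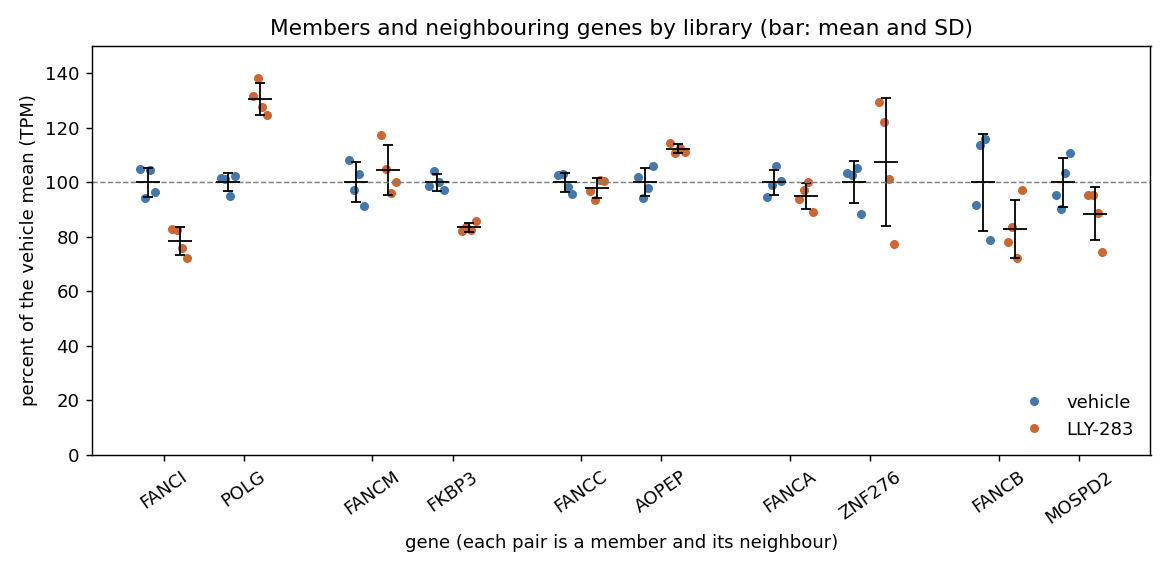
Level in each library as a percentage of the vehicle mean (vertical axis) for 5 members and the neighbouring gene beside each, with mean and SD of 4 libraries as bars. POLG and AOPEP lie above 100% with LLY-283 and FKBP3 below it, while FANCI is lower and FANCM and FANCC overlap their vehicle values.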

How the data were processed

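Poly(A) RNA of 8 U251 cultures was sequenced. The authors removed adapters (Cutadapt 1.18), aligned reads to GRCh38 (STAR) and estimated abundance with RSEM on a GENCODE annotation. The submitters' processing notes name STAR 2.7.0f and RSEM 1.3.1, and the study's methods name other versions of both. What the authors deposited is a table of TPM by gene, with 2 decimals kept.

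From these, log2(TPM + 0.1) was compared with limma 3.58.1 in R 4.3.3 (lmFit, eBayes with trend, no block) over the 14478 genes averaging 1 TPM or more, with Benjamini-Hochberg adjustment. Fold changes on this scale understate those of low genes. The fit was tested on simulated data. The labels call the libraries biological replicates without saying more, so p-values measure the spread between these cultures.

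The members, and the lists of partner, downstream and end joining genes, were chosen with earlier results of these data known. Cell cycle lists came from Seurat 5.3.0. Named genes are all members and partners, neighbours of at least 1 TPM (overlapping a member, or starting within 1000 bases of it), up to 4 called genes with the smallest p per direction in each other list, PRMT5, and the 3 genes most like FANCL, FANCD2 and FANCI. Some genes were named outside this rule: the cell type markers, RMI1, BRCA2, PALB2, and neighbours or related genes below 1 TPM such as VRK2, FANCD2OS and FANCD2P2. Positions come from GENCODE release 44 (GRCh38). Alternatives were pseudocounts of 0.5 and 1, other filters, scalings and forms of eBayes, removal of trends on GC content and transcript length, a replicate block, a 1.5-fold threshold and leaving out each library. Splicing and transcript isoforms were not analysed here. The values of 1 withheld item are not reported here.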

Additional observations from a re-analysis of the deposited data

Results flagged for a closer look

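In groups of 4 libraries, 9 of the 154 sets of values examined had a single library far from the other 3, by a gap that chance gives in about 1 set in 20. None of the 10 members was among them by its own TPM. The share of FANCL in the summed TPM of the core genes was 10.2% in LLY-283 replicate 4, against 12.1 to 12.3% in the other LLY-283 libraries. The same library had a mitochondrial share of 7.19%, 9.17 TPM of XRCC2, 38.26 TPM of CENPU, 27.3 TPM of POLA1 (above the other 3) and 11.54 TPM of DUXAP8. In vehicle replicate 3, FAAP24 had 6.76 TPM and POLG 51.87 TPM, and in vehicle replicate 4 ZNF276 had 12.79 TPM, all below the other 3 libraries. What sets LLY-283 replicate 4 apart was not tested.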

How the results depend on the processing

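Over the 20 alternatives fitted, the log2 difference was -0.87 to -0.77 for FANCL, -0.38 to -0.31 for FANCI and -0.31 to -0.21 for FANCD2, whose call was lost under 6 of them, among them the replicate block and no filter on low values. As the members were picked on this contrast, these ranges are no test of them. The median log2 difference of the members was -0.039 under quantile normalization, where that of all genes turned positive (0.014). It was -0.020 with median-of-ratios scaling (all genes -0.002) and -0.09 to -0.05 with each library left out. The summed vehicle level of the members moved from 282.4 to 277.8 TPM with median-of-ratios scaling and lay between 280.5 and 283.7 TPM without one vehicle library.

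With a 1.5-fold change also required, 1 member, 0 partner genes, 0 downstream genes lower and 1 higher (SLX1B), 0 neighbours (lower or higher), 0 end joining genes (lower or higher), 1 cell cycle gene lower and 0 higher were called. Downstream genes called lower numbered 3 with median-of-ratios scaling, and 3 were called higher under quantile normalization. Of the end joining genes, 0 were called lower with no filter, quantile normalization, median-of-ratios scaling, the replicate block, or the block with GC and length trends removed, and 0 to 1 without one library. Of those called higher, 0 remained with no filter, eBayes without trend or the replicate block, 1 with GC and length trends removed (with or without the block), and 0 to 2 without one library. Cell cycle genes called higher numbered 1 with no filter, 2 with eBayes without trend, 2 with the block (with or without the removal), and 1 to 5 without one library. Those called lower, in both lists together, numbered 29 on the deposited scale (all genes 2541). This count was 20 with median-of-ratios scaling (all genes 1867) and 42 with GC and length trends removed (all genes 2894).

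Same-numbered libraries correlated at -0.09 to 0.03 in their deviations from the group means over 14478 genes. Differently numbered libraries correlated at -0.21 to 0.20. The labels do not say whether the cultures were paired, and these correlations cannot settle it. With the replicate block 2201 genes were called lower and 1095 higher, against 2541 and 1247 without it, and 2 members. With quantile normalization 1820 were called lower and 1871 higher, and with median-of-ratios scaling 1867 and 1927. Depth is unknown for TPM.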
